A study of Mus musculus with 8 samples.

Results

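A set of 10 genes that carry glucose into cells, carry lactate across the cell membrane and decide what becomes of pyruvate was examined in bulk RNA-Seq of murine megakaryocytes (MKs, the marrow cells that make platelets). They were the glucose transporter genes Slc2a1, Slc2a3 and Slc2a6, the monocarboxylate transporter genes Slc16a1 and Slc16a3, the lactate dehydrogenase genes Ldha and Ldhb, Pdha1 of the pyruvate dehydrogenase complex, and its kinase genes Pdk1 and Pdk3. The genes were picked by symbol, and all 10 of them were found among the 13387 genes of the deposited counts and were tested. MKs of C57BL/6 bone marrow were cultured for 18 hours, either alone (4 libraries) or in coculture with sorted mesenchymal stem cells of the marrow (MSCs, 4 libraries). Both groups were wild type, and the labels give no other treatment. MKs had been enriched from flushed marrow with beads against CD41 and were kept in thrombopoietin, and MSCs were sorted as CD45-Ter119-CD31-CD51+CD140a+ cells. Several wells were pooled for a library, and the labels do not say whether libraries came from separate animals. The paper counts its pooled platelet samples in mice but does not tie a library of the labels to a mouse, so p-values are read as measuring the spread between these libraries. The labels give the sequenced cells as MKs taken apart from the platelets, whereas the paper describes platelets, and values are given here for the cells of the labels.

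Glucose enters most cells by facilitated transport through the GLUT proteins, which the Slc2a genes encode, and glycolysis turns it into pyruvate. Lactate dehydrogenase converts pyruvate to lactate, which leaves or enters the cell through monocarboxylate transporters (MCTs). Pyruvate that enters mitochondria instead is turned into acetyl-CoA by pyruvate dehydrogenase, which the Pdk kinases switch off by phosphorylation, so the balance of these proteins sets how much glucose carbon is burned and how much is released. Platelets and MKs use both routes.

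The libraries held between 4939874 and 12523616 counts. Replicate 3 of the cocultures had the highest total but counts on 10735 genes, against 13104 to 13193 in the other cocultures and 12406 to 12622 in MKs cultured alone, and 1012 genes were at 0 in it that had at least 10 counts in every other library. It was the lowest of the 8 libraries for 5 of the 10 genes, and results that rest on it are given with and without it. Levels are given as CPM, a count relative to the size of its library, scaled with TMM factors, which correct for a few abundant genes that fill a library. A floor of 3 counts lay between 0.24 and 0.607 CPM and covers counting error only. In bulk RNA, fewer cells of a type and less RNA per cell cannot be told apart. Genes were called where the fold change was at least 2, the adjusted p was at most 0.05 and the mean was at least 1 CPM in 1 of the groups.

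Marker genes of other marrow cells differed between the groups. The 11 neutrophil markers summed to between 84606 and 86382 CPM in MKs cultured alone and to between 4303 and 10218 CPM in cocultures, with S100a8 the most abundant, and 11 of 11 were called lower. Macrophage markers summed to 443 to 503 CPM in MKs cultured alone and 1554 to 2391 CPM in cocultures, and 10 of 11 were called higher. The exception was Mpeg1, the most abundant of them, which was not called (log2 fold change -0.40, edgeR adjusted p = 0.265). Of 12 MSC markers listed, the counts held 9, without Dcn, Lum and Thy1, and a low-count filter dropped Pdgfra and Lepr from testing. MSC markers summed to 42.8 to 69.3 CPM in MKs cultured alone and 1242 to 4103 CPM in cocultures. Here 7 of 7 tested were called higher (Sparc the most abundant). In replicate 3 of the cocultures Lepr was at 0 and Pdgfra had 2 counts. B cell markers summed to 880 to 939 CPM in MKs cultured alone and 91.1 to 231 CPM in cocultures, and 4 of 7 were called lower, or 6 without replicate 3 of the cocultures (Ms4a1 the most abundant). The 15 MK and platelet markers summed to 1943 to 2264 CPM in MKs cultured alone and 1752 to 2362 CPM in cocultures (Pf4 the most abundant), with Gp6 at 0 in replicate 3 of the cocultures. Of these, 0 were called by edgeR (1 had an unadjusted p under 0.05), DESeq2 called 1 lower, and without replicate 3 edgeR called 3 lower. Erythroid markers summed to 29.4 to 41.3 and 18.4 to 63.9 CPM, and edgeR called 0 of 4 tested (1 with an unadjusted p under 0.05, and 1 called lower by DESeq2), with Hbb-bs the most abundant. The highest of these sums was that of replicate 3, the other cocultures lay between 18.4 and 20.8 CPM, below every library of MKs cultured alone, and without replicate 3 edgeR called 3 of 5 lower. The part of these cells in the results below was not tested.

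Slc2a1 and Ldha were higher in cocultures and Slc2a3 was lower, and the other 7 genes were not called by edgeR's quasi-likelihood test with Benjamini-Hochberg adjustment. Thus 2 of the 10 genes were called higher, where 13.2% of the 11722 genes tested were, and 1 was called lower, where 7.31% were. Every coculture lay above every library of MKs cultured alone for 2 genes (19.3% of all genes) and below for 2 genes, Slc2a3 and Pdk3 (21.1% of all genes). These shares are near those of all genes, so the counts are no result about the 10 genes as a group. Without replicate 3 of the cocultures 1 gene was called higher (20.6% of 12267 genes) and 1 lower (15.4%). The median log2 fold change of the 10 genes was 0.033, with 5 above 0 and 5 below, against a median of 0.034 over all genes.

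**Figure D1:**
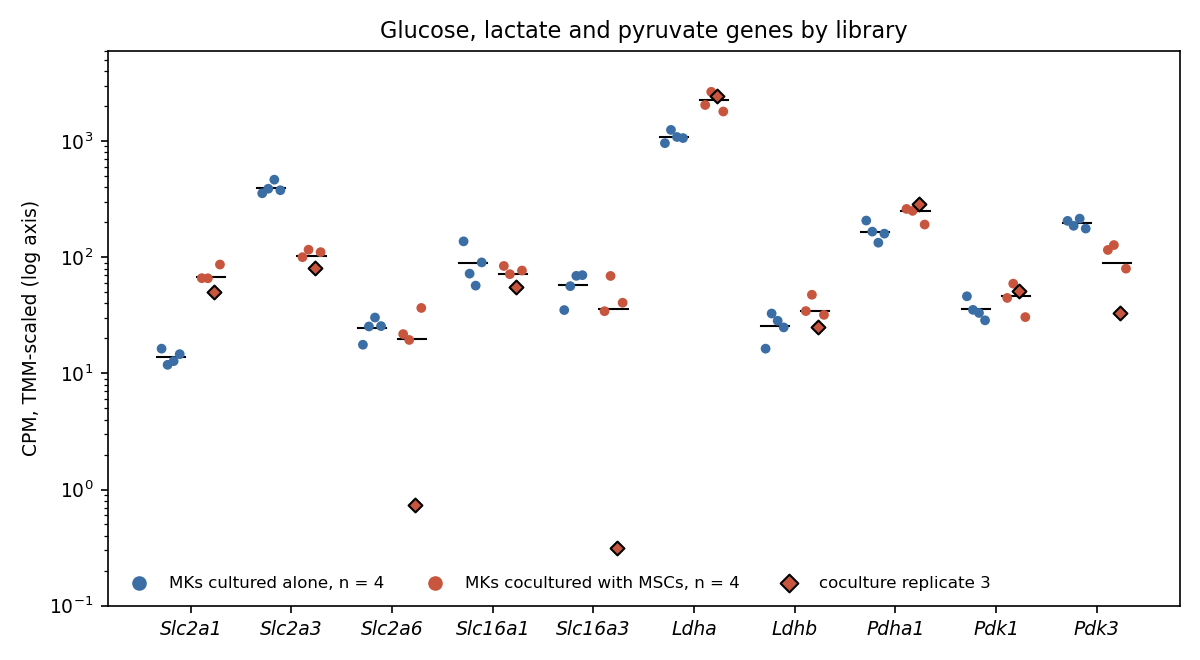
TMM-scaled CPM on a log axis of the 10 genes in the 4 libraries of MKs cultured alone (blue) and the 4 cocultures (red, with replicate 3 as a diamond), with black lines for group means. Slc2a1 ran from 11.9 to 16.3 CPM in MKs cultured alone and from 49.8 to 86.6 CPM in cocultures, Slc2a3 moved the other way, and Slc2a6 and Slc16a3 were near 0 in the diamond library.

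Slc2a1, Ldha, Slc16a3 and Pdk1 are among the textbook targets of the hypoxia-inducible factor HIF-1. They are not a full list of its targets among the 10 genes, and no direction of its targets can be read from them. Slc2a3 and Pdk3, left out of this selection, were lower in every coculture. Of the selected genes, Slc2a1 and Ldha were called higher in cocultures while Slc16a3 and Pdk1 were not. Their upstream sequences are shown for that reason, as the 250 bases before the first start site that RefSeq lists for each gene on GRCm38.p6. Capitals mark the core letters of the HIF binding motif, ACGTG or GCGTG, on either strand (as CACGT or CACGC on the other), and the overlapping letters CACGTG count as 2 matches.
Slc2a1 (chr4:119108495-119108744, plus strand): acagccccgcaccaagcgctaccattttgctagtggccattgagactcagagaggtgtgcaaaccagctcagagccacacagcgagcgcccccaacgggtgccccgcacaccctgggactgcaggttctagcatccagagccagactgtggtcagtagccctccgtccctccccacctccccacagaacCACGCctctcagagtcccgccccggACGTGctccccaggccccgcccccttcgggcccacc
Ldha (chr7:46845554-46845803, plus strand): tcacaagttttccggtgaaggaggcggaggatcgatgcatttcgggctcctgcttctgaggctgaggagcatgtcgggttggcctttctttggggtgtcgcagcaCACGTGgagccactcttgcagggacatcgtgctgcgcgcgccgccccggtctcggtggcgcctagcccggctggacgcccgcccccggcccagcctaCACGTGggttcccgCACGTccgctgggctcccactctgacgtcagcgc
Slc16a3 (chr11:120948817-120949066, plus strand): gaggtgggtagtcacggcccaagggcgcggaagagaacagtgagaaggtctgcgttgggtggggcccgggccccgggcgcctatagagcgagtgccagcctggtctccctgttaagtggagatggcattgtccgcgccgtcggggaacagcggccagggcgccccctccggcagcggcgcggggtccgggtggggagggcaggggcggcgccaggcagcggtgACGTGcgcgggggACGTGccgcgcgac
Pdk1 (chr2:71872974-71873223, plus strand): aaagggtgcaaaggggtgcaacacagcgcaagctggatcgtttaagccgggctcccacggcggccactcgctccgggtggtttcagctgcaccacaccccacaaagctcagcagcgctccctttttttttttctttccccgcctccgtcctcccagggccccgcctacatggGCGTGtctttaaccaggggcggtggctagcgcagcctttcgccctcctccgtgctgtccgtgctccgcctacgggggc
The Slc2a1 window held 2 matches, 61 and 36 bases before the start site, and the Ldha window held 5, between 145 and 34 bases before it. Slc16a3 had 2 matches, 27 and 14 bases before its start, and Pdk1 had 1, at 78 bases. A further listed start of Ldha had 1 match and a further start of Pdk1 had 0. Windows not shown held 4 matches each for Slc2a6, Slc16a1 and Pdk3, 3 for Pdha1 and 1 for Ldhb. None of those genes was called by edgeR, and Pdk3 was lower in every coculture. Slc2a3, which was called lower, had no entry in the RefSeq table. Of the 10 genes, 9 matched that table and 10 of their 11 windows held a match, as did 38.8% of 32536 distinct windows of all genes. Those windows were not matched in their content of G and C, so the shares give no test of enrichment. A match describes the letters of the window and is not evidence that a factor bound there.

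Slc2a1 encodes GLUT1, the transporter of basal glucose uptake in many cells, and lies at chr4:119108711-119137983 (GRCm38, plus strand). Its level was 16.3, 11.9, 12.8 and 14.6 CPM in MKs cultured alone and 66.1, 65.9, 49.8 and 86.6 CPM in cocultures. The lowest coculture stood well above the highest library of MKs cultured alone, and replicate 3 was the lowest of the cocultures. The means were 13.9 ± 2.0 CPM and 67.1 ± 15.1 CPM (SD, n = 4 each), a 4.83-fold difference (edgeR log2 fold change 2.27, SE 0.28, adjusted p = 0.000584). Without replicate 3 of the cocultures the log2 fold change was 2.38.

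Slc2a3 encodes GLUT3, a high-affinity transporter known from neurons, platelets and leukocytes, and lies at chr6:122727809-122801640 on the minus strand. In MKs cultured alone it stood at 356, 389, 466 and 378 CPM. The 4 cocultures held 100.2, 116, 81.0 and 111 CPM, so that every coculture was below every library of MKs cultured alone. The mean fell from 397 ± 47.8 to 102 ± 15.5 CPM (SD, n = 4 each), to 0.257 of its level (edgeR log2 fold change -1.96, SE 0.19, adjusted p = 0.000151), and the log2 fold change was -1.89 without replicate 3 of the cocultures. The annotation places a processed pseudogene, Gm4482, within its span, and the counts do not show whether reads were shared with it.

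Slc2a6 encodes GLUT6, a transporter of lysosomal membranes that is known from macrophages. Its levels of 17.7, 25.4, 30.3 and 25.5 CPM in MKs cultured alone overlapped those of 21.8, 19.4, 0.732 and 36.6 CPM in cocultures. The value of replicate 3 rested on 7 counts, and it was the only coculture below the lowest library of MKs cultured alone. The log2 fold change of -0.33 (SE 0.82, edgeR adjusted p = 0.808) became 0.033 without that library, so no direction can be given.

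The 2 called transporters were set against each other within each library, where the scaling of libraries cancels. Slc2a1 gave 2.67% to 4.39% of the counts of the pair in MKs cultured alone. In cocultures the share was 39.7%, 36.2%, 38.1% and 43.9% in replicates 1 to 4, with 95% Wilson intervals between 33.7% and 46.8%, which cover counting error only because amplified reads are not independent molecules. All 4 cocultures lay close together and far above MKs cultured alone, replicate 3 included. The log2 ratio of Slc2a1 to Slc2a3 counts was -4.83 ± 0.34 and -0.62 ± 0.20 (SD, n = 4 each), a difference of 4.21 (exact permutation test, two-sided, p = 0.0286, which is the lowest value possible with 4 libraries a group, and 0.0714 after Benjamini-Hochberg adjustment over the 5 ratios tested). Slc2a1 was above and Slc2a3 below MKs cultured alone in every coculture. The ratios therefore had to separate the groups, and this lowest p was fixed in advance and adds no support to the 2 calls. Higher ratios were seen in 4 of 4 cocultures, and with that adjustment the difference did not pass 0.05. Leaving out any 1 library gave 4.10 to 4.35, where 3 against 4 libraries cannot give p below 0.0571. Per kb of exon, Slc2a1 stood at 0.0426 of the level of Slc2a3 in MKs cultured alone and at 0.791 of it in cocultures.

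Added per kb of exon, the 3 glucose transporter genes came to between 103 and 136 CPM per kb in MKs cultured alone and between 36.1 and 71.6 CPM per kb in cocultures. Slc2a3 made up 85.3% to 87.1% of this sum in MKs cultured alone and 39.0% to 56.7% in cocultures, and Slc2a1 made up 2.88% to 4.86% and 34.5% to 42.3%. These sums were formed after the values had been seen and carry no test.

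**Figure D2:**
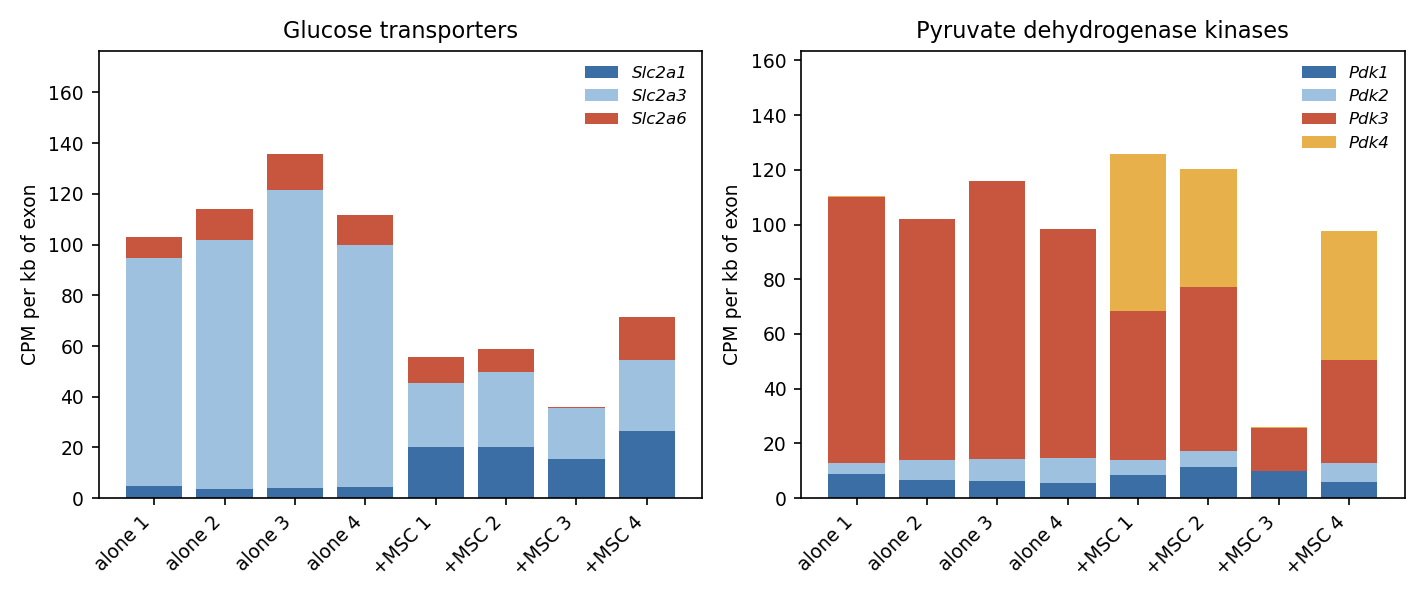
Stacked levels in CPM per kb of exon of 3 glucose transporter genes (left) and the 4 pyruvate dehydrogenase kinase genes (right) in each library, MKs cultured alone first. Slc2a3 fills most of the left bars of MKs cultured alone, and Pdk4 is visible in cocultures 1, 2 and 4 but not in coculture 3, whose kinase bar reaches 25.9 CPM per kb.

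The genes whose levels most resembled each transporter were looked up over the 8 libraries by Pearson's r of log2(CPM + 1), as a description in which the 2 groups make up most of the range. For Slc2a1 these were Tnks1bp1 (r = 0.994), Fn1, the matrix protein fibronectin (0.994), and Cachd1 (0.992). For Slc2a3 they were Elane, the elastase of neutrophil granules (0.998), Klhl6 (0.996) and Sephs2 (0.995). Elane is 1 of the neutrophil markers above. Slc2a3 and the neutrophil markers were thus both lower in all 4 cocultures, and Slc2a1 and the summed levels of the macrophage and MSC markers were higher in all 4.

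**Figure D3:**
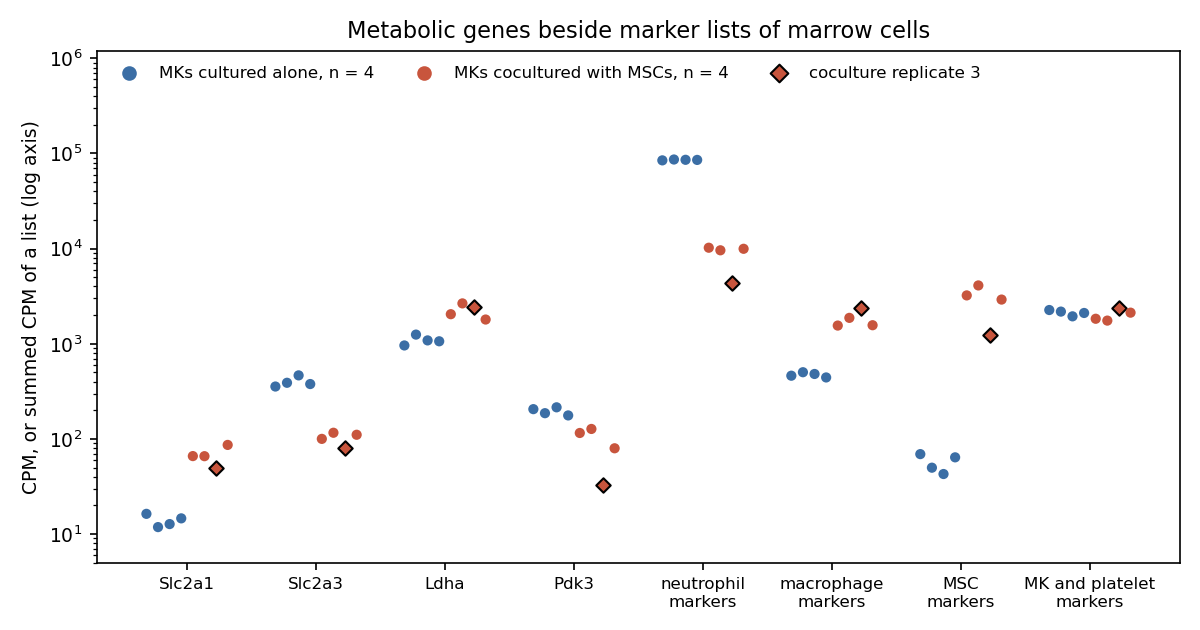
CPM of Slc2a1, Slc2a3, Ldha and Pdk3 beside the summed CPM of 4 marker lists, on a log axis, for each library of MKs cultured alone (blue) and each coculture (red, replicate 3 as a diamond). Neutrophil markers fell from at least 84606 to at most 10218 CPM while MK and platelet markers kept overlapping ranges.

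Other genes of glucose transport moved in both directions. Of 8 further genes of the list that the counts hold, 6 were tested, 1 was called higher and 1 lower (13.2% and 7.31% of all genes). Txnip, an arrestin-like protein that draws GLUT1 off the cell surface, stood at 104 to 130 CPM in MKs cultured alone and at 34.8 to 57.2 CPM in cocultures, without overlap (edgeR log2 fold change -1.31, SE 0.22, adjusted p = 0.00303). Gipc1, a PDZ protein that binds GLUT1, rose from 12.4 to 24.4 CPM to 39.0 to 66.3 CPM (log2 fold change 1.65, edgeR adjusted p = 0.00660). Arrdc4, of the same list and named after its values were seen, moved opposite to Txnip. It ran from 16.1 to 27.4 CPM in MKs cultured alone and from 30.6 to 63.0 CPM in cocultures, without overlap. Its log2 fold change of 1.04 (edgeR adjusted p = 0.0625) was not called, and it was 0.74 and not called without replicate 3 of the cocultures. Without replicate 3 of the cocultures, 4 of 7 tested were called higher and 1 lower (20.6% and 15.4% of all genes). Slc2a8, Slc2a10 and Slc2a13, named after their values were seen, were then added to Gipc1. These 3 had 0 counts in replicate 3, so their calls rest on leaving out the coculture that differed. Slc2a13 had at most 3 counts in a library of MKs cultured alone and passed the low-count filter only through the other cocultures.

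Both monocarboxylate transporters held overlapping levels. Slc16a1 encodes MCT1, which takes up or releases lactate along its gradient, and ran from 57.0 to 137 CPM in MKs cultured alone and from 55.5 to 84.2 CPM in cocultures (log2 fold change -0.31, SE 0.30, edgeR adjusted p = 0.502). Slc16a3 encodes MCT4, the lactate exporter of strongly glycolytic cells. It was measured at 35.1, 56.4, 69.2 and 70.1 CPM in MKs cultured alone and at 34.3, 69.0, 0.314 and 40.6 CPM in cocultures. Replicate 3 of the cocultures had 3 Slc16a3 counts, which is at the floor, whereas the other cocultures lay within or just under the range of MKs cultured alone. Its log2 fold change of -0.68 (SE 0.97, edgeR adjusted p = 0.654) was -0.29 without that replicate (adjusted p = 0.364).

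The share of Slc16a1 in the counts of the 2 transporters was 45.2% to 79.6% in MKs cultured alone, and 71.0%, 50.9%, 99.4% and 65.4% in cocultures 1 to 4. Except for replicate 3 the cocultures lay inside the range of MKs cultured alone. The difference in log2 ratio was 1.78 (two-sided exact permutation test, p = 0.429, adjusted p = 0.429) and 0.15 without replicate 3.

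MCTs reach the cell surface with small immunoglobulin-like partner proteins, and those 2 partners were called in opposite directions. Bsg, encoding basigin, the partner of MCT1 and MCT4, was at 118, 155, 139 and 130 CPM in MKs cultured alone and at 451, 523, 417 and 467 CPM in cocultures. Every coculture exceeded every library of MKs cultured alone, replicate 3 included (edgeR log2 fold change 1.78, SE 0.17, adjusted p = 0.000145). Emb, encoding embigin, which also accompanies MCTs, was at 673, 480, 472 and 519 CPM in MKs cultured alone and at 183, 193, 44.7 and 173 CPM in cocultures. It was lower in every coculture and lowest in replicate 3 (log2 fold change -1.85, SE 0.42, edgeR adjusted p = 0.0132), and its log2 fold change was -1.57 without that replicate. Bsg and Emb were the 2 called genes among the 7 tested of 8 further genes of monocarboxylate transport in the counts. Over all genes, 13.2% were called higher and 7.31% lower. Without replicate 3 of the cocultures all 8 were tested and Slc5a8, a sodium-coupled transporter named after its value was seen, was also called higher. It had 0 counts in every library of MKs cultured alone and in replicate 3 of the cocultures, and 1.82 to 4.45 CPM in the other cocultures. It passed the low-count filter only through those cocultures and with replicate 3 left out, so the call adds no support beyond the counts.

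Ldha encodes the M subunit of lactate dehydrogenase, which favours the formation of lactate, and lies at chr7:46841475-46855627 on the plus strand. It had the highest level per kb of the 10 genes in both groups. Its level was 960, 1249, 1085 and 1062 CPM in MKs cultured alone and 2046, 2657, 2460 and 1798 CPM in cocultures. The groups did not overlap, and replicate 3 lay within the range of the other cocultures. The means of 1089 ± 120 and 2240 ± 389 CPM (SD, n = 4 each) differed 2.06-fold (edgeR log2 fold change 1.04, SE 0.20, adjusted p = 0.00529). The change was close to the cutoff of 2-fold, and the call was lost, at a log2 fold change of 0.97 to 0.99 with the adjusted p still at most 0.0216, without replicate 2 or 3 of the cocultures or replicate 1 of MKs cultured alone. The annotation names processed copies, Ldha-ps and Ldha-ps2, and whether reads were split with them is not known.

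Ldhb encodes the H subunit, which favours the formation of pyruvate, and ran from 16.3 to 32.8 CPM in MKs cultured alone and from 24.9 to 47.5 CPM in cocultures (log2 fold change 0.44, SE 0.34, edgeR adjusted p = 0.395). Ldha gave 97.4% to 98.3% of the counts of the pair in MKs cultured alone and 98.2% to 99.0% in cocultures, so that Ldhb was the minor transcript in every library. The log2 ratio of Ldha to Ldhb differed by 0.59 (two-sided exact permutation test, p = 0.0857, adjusted p = 0.107) and by 0.39 without replicate 3 of the cocultures.

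Several enzymes that make or use pyruvate, or that trade malate and aspartate, were higher in cocultures. Of 10 tested genes of the list on lactate and pyruvate conversion, edgeR called 5 higher and 0 lower (13.2% and 7.31% of all genes). Ldhc was lower with an unadjusted p under 0.05 in edgeR and was called lower by DESeq2. Without replicate 3 of the cocultures edgeR called 4 higher and 1 lower (20.6% and 15.4% of all genes). Ldhc, the lactate dehydrogenase of the testis, was then lower (edgeR log2 fold change -1.75, adjusted p = 0.00665) and Pcx, pyruvate carboxylase, higher (2.56, adjusted p = 1.57e-06). Ldhc and Pcx are named after their values were seen. Me1, the cytosolic malic enzyme that makes pyruvate and NADPH from malate, rose most of the named ones, from 4.12 to 7.28 CPM to 69.9 to 150 CPM (edgeR log2 fold change 4.41, SE 0.36, adjusted p = 7.58e-05). Got1 and Got2, the aspartate aminotransferases of cytosol and mitochondria, had log2 fold changes of 1.82 and 1.40 (edgeR adjusted p = 0.00985 and 0.00480). Pkm, the pyruvate kinase that closes glycolysis, was at 792 to 1443 CPM in MKs cultured alone and at 1714, 2332, 5146 and 2419 CPM in cocultures, where replicate 3 was the highest. Its log2 fold change of 1.25 (edgeR adjusted p = 0.0385) was 0.80 and under the fold cutoff without that replicate. The other called gene was Mdh2, mitochondrial malate dehydrogenase (log2 fold change 1.16, edgeR adjusted p = 0.0386), named after its value was seen, which was 0.77 and not called without replicate 3.

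**Figure D4:**
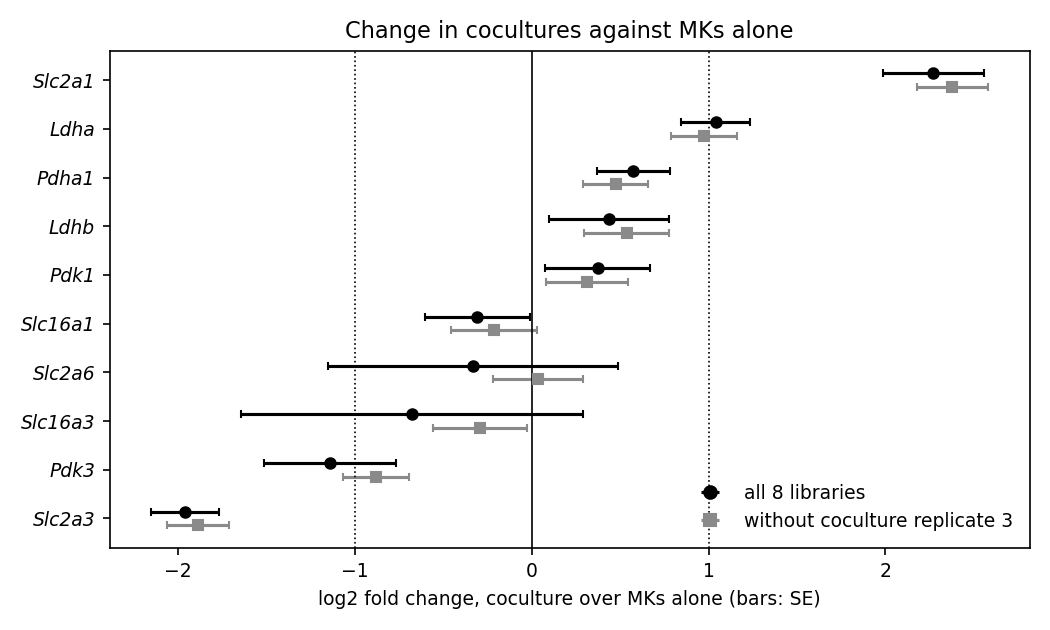
Log2 fold changes of the 10 genes in cocultures over MKs cultured alone with their SE from edgeR, with all 8 libraries (black) and without replicate 3 of the cocultures (grey), and dotted lines at the fold cutoff of 2. Slc2a1 (2.27 and 2.38) and Slc2a3 (-1.96 and -1.89) lie outside both lines in either fit, Ldha lies at the line, and the error bars of Slc2a6 and Slc16a3 shrink without replicate 3.

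Pdha1 encodes the E1 alpha subunit of pyruvate dehydrogenase, the protein that the Pdk kinases phosphorylate, and lies at chrX:160122209-160138413 on the minus strand. It was measured at 207, 166, 134 and 160 CPM in MKs cultured alone and at 261, 251, 288 and 191 CPM in cocultures. Only replicate 1 of MKs cultured alone overlapped the cocultures, above their replicate 4. The log2 fold change of 0.57 (SE 0.21) missed the threshold (edgeR adjusted p = 0.0762), and without replicate 3 of the cocultures it was 0.47 with an adjusted p of 0.0385, under the fold cutoff. Map3k15 overlaps Pdha1 on the opposite strand, and because the use of strand in counting is not given in the sources used here, their reads cannot be told apart.

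The ratio of Ldha to Pdha1 sets the step to lactate beside the step to acetyl-CoA. Ldha gave 82.3% to 89.0% of the counts of this pair in MKs cultured alone and 88.7% to 91.4% in cocultures, ranges that overlapped. The log2 ratio differed by 0.46 (two-sided exact permutation test, p = 0.0571, adjusted p = 0.0952).

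Pdk3 lies at chrX:93764607-93832201 on the minus strand and encodes a kinase that inhibits pyruvate dehydrogenase. Its level was 206, 187, 215 and 177 CPM in MKs cultured alone. The cocultures held 116, 127, 33.0 and 79.8 CPM, all below MKs cultured alone, with replicate 3 the lowest. The means were 196 ± 17.5 and 88.9 ± 42.4 CPM (SD, n = 4 each), with a log2 fold change of -1.14 (SE 0.37) that missed the call (edgeR adjusted p = 0.0567). DESeq2 called it lower (log2 fold change -1.17, adjusted p = 0.0146), and without replicate 3 the log2 fold change was -0.88 with an edgeR adjusted p of 0.000762, under the fold cutoff. Every coculture was below every library of MKs cultured alone with or without that replicate.

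Pdk1, a kinase of the same family, ran from 28.6 to 46.1 CPM in MKs cultured alone and from 30.5 to 59.3 CPM in cocultures (log2 fold change 0.37, SE 0.30, edgeR adjusted p = 0.407). Its share of the counts of Pdk1 and Pdk3 was 13.4% to 18.3% in MKs cultured alone, and 27.9%, 31.8%, 60.7% and 27.7% in cocultures 1 to 4. All cocultures lay above MKs cultured alone, and replicate 3 stood apart from the other cocultures. The log2 ratio was -2.47 ± 0.24 and -0.81 ± 0.96 (SD, n = 4 each), a difference of 1.66 (two-sided exact permutation test, p = 0.0286, adjusted p = 0.0714, higher in 4 of 4 cocultures). It was 1.18 without replicate 3 and 1.85 without replicate 4 of the cocultures.

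**Figure D5:**
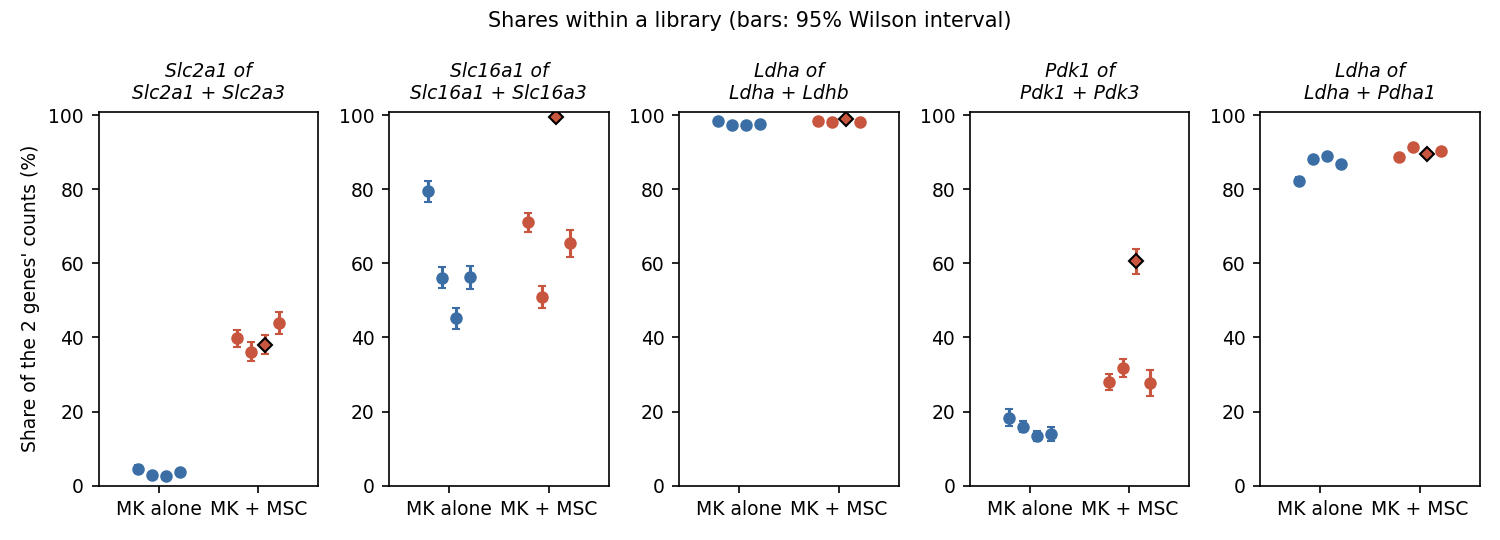
Share of the first gene in the counts of 5 gene pairs, in percent, for each library of MKs cultured alone (blue) and each coculture (red, replicate 3 as a diamond), with 95% Wilson intervals that cover counting error only. The groups are apart for Slc2a1 of Slc2a1 and Slc2a3 (at most 4.39% against at least 36.2%) and for Pdk1 of Pdk1 and Pdk3 (at most 18.3% against at least 27.7%), and overlap for the other 3 pairs.

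The remaining kinases of the family were read beside these. Pdk4, the kinase known to rise in fasting and with fatty acid oxidation, had 3, 0, 2 and 3 counts in MKs cultured alone and 2104, 1153, 13 and 948 counts in cocultures, or 199, 150, 1.36 and 164 CPM. It was thus near absent from MKs cultured alone and abundant in 3 cocultures, with replicate 3 far below the others but above every library of MKs cultured alone. The low-count filter dropped Pdk4 from the fit of all libraries. With replicate 3 left out Pdk4 was tested and called higher (edgeR log2 fold change 9.17, SE 0.37). It then passed the filter only through the cocultures in which it was high, so that call adds no support beyond the counts. Pdk4 was also called with all libraries and no filter (edgeR log2 fold change 8.68, SE 1.52, adjusted p = 0.00419), where the size depends on the few counts in MKs cultured alone. Pdk2 ran from 9.05 to 20.7 CPM in MKs cultured alone and from 0.209 to 15.6 CPM in cocultures (log2 fold change -0.65, edgeR adjusted p = 0.644). Per kb of exon, Pdk3 made up 84.9% to 88.1% of the 4 kinase genes in MKs cultured alone. In cocultures 1, 2 and 4 it made up 43.4%, 50.0% and 38.6% and Pdk4 made up 45.5%, 35.8% and 48.3%, while replicate 3 held 60.2% Pdk3, 37.9% Pdk1 and 1.51% Pdk4. The sum of the 4 kinase genes was 98.4 to 116 CPM per kb in MKs cultured alone and 126, 120, 25.9 and 97.8 CPM per kb in cocultures 1 to 4, so that outside replicate 3 the sums overlapped. This composition was formed after the values had been seen and carries no test.

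The carrier that brings pyruvate into mitochondria is made of Mpc1 and Mpc2. Mpc1 was at 294, 275, 265 and 292 CPM in MKs cultured alone and at 167, 122, 354 and 149 CPM in cocultures, where replicate 3 was the highest of all libraries and the other 3 were below MKs cultured alone. Its log2 fold change of -0.51 (edgeR adjusted p = 0.299) was -0.97 without replicate 3 (adjusted p = 0.000141), just under the fold cutoff. Mpc2 ran from 186 to 259 CPM in MKs cultured alone and from 105 to 155 CPM in cocultures without overlap (log2 fold change -0.78, SE 0.20, edgeR adjusted p = 0.0229) and was not called because the change was less than 2-fold. Of 10 tested genes of mitochondrial pyruvate entry and the dehydrogenase complex, 0 were called in either direction by edgeR or DESeq2. In edgeR 2 higher and 1 lower had an unadjusted p under 0.05, and over all genes 13.2% were called higher and 7.31% lower. Without replicate 3 of the cocultures 1 of 11 was called higher (20.6% of all genes), which was Pdk4 with the limit given above.

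Genes of the hypoxia response, which includes the factors that act on several of the 10 genes, did not move in 1 direction. Of 21 tested, 4 were called higher and 3 lower (13.2% and 7.31% of all genes). Without replicate 3 of the cocultures 4 were called higher and 5 lower (20.6% and 15.4% of all genes). Hif1a, the regulated subunit of HIF-1, was at 109 to 173 CPM in MKs cultured alone and at 209 to 293 CPM in cocultures, without overlap (log2 fold change 0.95, SE 0.22, edgeR adjusted p = 0.0157), just under the fold cutoff. Adm, the peptide adrenomedullin, rose with a log2 fold change of 5.16 (SE 0.91, edgeR adjusted p = 0.00404), Epas1, encoding HIF-2 alpha, with 3.35 (adjusted p = 0.00781), and Vegfa, the vascular growth factor, with 1.50 (adjusted p = 0.00418). Mxi1, a MYC antagonist, fell with a log2 fold change of -1.70 (SE 0.25, edgeR adjusted p = 0.00139). The remaining called genes, named after their values were seen, were Higd1a (log2 fold change 1.38, 0.79 and not called without replicate 3), and Kdm3a and Bnip3l, which fell (-1.29 and -1.01). In all, 54 genes of the 5 further lists were tested, with 11 called higher and 5 lower, and the median log2 fold change was 0.20. Over all genes tested 13.2% were called higher and 7.31% lower, with a median of 0.034. The counts carry no set test and are no result about the lists as a group.

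Compared per kb of exon, the order of the 10 genes changed between the groups. In MKs cultured alone Ldha led at 575 CPM per kb, followed by Slc2a3 (100.3) and Pdk3 (92.7), whose ranges overlapped, and then by Pdha1 (58.5). Slc16a1, Ldhb, Slc16a3, Slc2a6 and Pdk1 followed at 20.1, 19.6, 13.0, 11.6 and 6.90 CPM per kb, with ranges that overlapped from each to the next, and Slc2a1 came last at 4.26, apart from Pdk1. In cocultures Ldha led again at 1182 CPM per kb, followed by Pdha1 at 87.0 and Pdk3 at 42.0, each apart from the one before, although Pdk3 overlapped the gene after it. Ldhb, Slc2a3, Slc2a1, Slc16a1, Slc2a6, Pdk1 and Slc16a3 followed at 26.6, 25.8, 20.6, 16.3, 9.18, 8.93 and 8.11 CPM per kb, and each overlapped the next. Slc2a1 thus stood in place 10 in MKs cultured alone and in place 6, next to Slc2a3, in cocultures.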

How the data were processed

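Bulk RNA-Seq counts of MKs cultured alone (4 libraries) and cocultured with MSCs (4 libraries) were analysed. The authors extracted RNA with a NucleoSpin kit, amplified it with SMART-Seq HT, trimmed the reads (fastp) and ran kallisto against mm10. They deposited whole-number counts per gene, without normalization, and how transcripts were summed is not given in the sources used here. Groups came from the labels. The methods name a batch term whose batches are not given in the sources used here, so no covariate was used.

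All genes were fitted with edgeR 4.0.16 in R 4.3.3 (TMM, filterByExpr, robust quasi-likelihood F test), and p-values were Benjamini-Hochberg adjusted over the 11722 genes tested. Count ratios, with 0.5 added to each count, were compared with exact permutation tests in scipy 1.17.1. Exon lengths came from GENCODE vM21 (13374 genes). Named genes were the 10 genes, up to 4 called genes of each pathway list with the largest change, regulators and partners of the 10, the most abundant gene of each marker list and the 3 genes most like the 2 strongest changes. The genes, lists and tests were chosen with earlier results of these data known. Alternatives were DESeq2 1.42.0, other scalings and filters, no fold cutoff, the replicate number as a block and leaving out each of the 8 libraries. Scripts were tested on simulated data with 8-fold changes and the spread of MKs cultured alone. That setting does not cover changes near 2-fold or the wider spread that replicate 3 brings to the cocultures.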

Additional observations from a re-analysis of the deposited data

Results flagged for a closer look

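Each group of 4 libraries was examined for a library far from the other 3, over the 10 genes, the other named pathway genes and the 5 ratios. Of 64 groups, 7 held such a library, where chance alone flags about 1 in 20 groups (3.2 here), and coculture replicate 3 was that library in 6 of them. In that replicate log2(CPM + 1) was 0.27 for Pdk2, 1.24 for Pdk4, 5.51 for Emb and 2.12 for Adm, each below the other cocultures. The log2 ratios that stood apart in it were 6.62 for Ldha to Ldhb and 0.62 for Pdk1 to Pdk3, both above the other cocultures. In replicate 4 of the cocultures, log2(CPM + 1) of Vegfa stood apart at 6.08, above the others. No explanation of these values was tested.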

How the results depend on the processing

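Slc2a1 and Slc2a3 kept their direction and their call under every alternative run, with log2 fold changes of 2.17 to 2.62 and -2.06 to -1.56. Ldha stayed positive (0.92 to 1.46) and Pdk3 negative (-1.33 to -0.74). The number of the 10 genes called higher was 1 in place of 2 with at least 10 counts in every library and with upper quartile factors, where Ldha fell under the fold cutoff (0.92 and 0.96), and 1 to 2 when single libraries were left out. The number called lower was 2 in place of 1 with DESeq2, RLE factors, at least 10 counts in every library and the replicate block in DESeq2, where Pdk3 was added (-1.17, -1.17, -1.20 and -1.31). Slc2a6 ran from -0.79 to 0.033 with single libraries left out and was positive only without replicate 3 of the cocultures, and Slc16a1 to 0.031 when scaled to MK and platelet markers. Under that scaling the median over all genes was 0.43 in place of 0.034, relative to which Slc16a1 stayed lower. It made higher genes 82.6% of the calls, against 64.3%. Slc2a6 and Slc16a3 were not tested where at least 10 counts in every library were required.

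Among further pathway genes, 17 were called higher and 2 lower when scaled to the markers (11 and 5 in the reported fit), 8 were called lower with the replicate block in DESeq2, and 3 to 8 with a library left out (3 without replicate 1 of MKs cultured alone and 8 without replicate 3 of the cocultures). Over all genes, 1544 were called higher and 857 lower, against 2323 and 489 when scaled to the markers, 1392 lower with the replicate block in DESeq2, and 1071 to 2530 higher and 539 to 1890 lower with a library left out. Both highest values are those without replicate 3 of the cocultures, and the lower genes numbered 539 to 570 without replicate 2 of the cocultures or replicate 1, 2 or 4 of MKs cultured alone. The log2 ratio of Slc2a1 to Slc2a3 differed by 4.10 to 4.35 and that of Pdk1 to Pdk3 by 1.18 to 1.85 with a library left out, where 3 against 4 libraries cannot give p below 0.0571. The causes were not tested.

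Libraries with the same replicate number were not paired in the reported fit, because the sources used here do not give the batches. The deviations from the group means correlated at 0.369, 0.0198, 0.15 and 0.028 across genes for numbers 1 to 4, all above 0. Unlike numbers gave -0.282 to 0.099, and not every library correlated best with its own number. These values do not settle whether equal numbers belong together. With the replicate number as a block, edgeR called 2 of the 10 genes higher and 1 lower, as without it, and 1096 genes higher and 573 lower in all. The median over all genes was then -0.14 in edgeR and -0.17 in DESeq2.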
